A study of Homo sapiens with 6 samples.

Results

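Keratins are the intermediate filament proteins of epithelial cells, and 10 of their genes were followed in MDA-MB231 cells, a long-established line from a human breast cancer that is known for its mesenchymal character. These were KRT8, KRT18, KRT7 and KRT19, keratins of single-layered epithelia, KRT5, KRT14, KRT15 and KRT17, keratins of basal cell layers, KRT80, and the hair keratin KRT81. Every probe set that the array's annotation pairs with a member, alone or with other symbols, was taken, which gave 10 of the 28869 probe sets on the array and covered 8 of the 10 genes. KRT18 had 3 probe sets, of which 7969574 is paired with both MIR622 and KRT18. The other 7 genes had 1 probe set each, paired with that gene alone. KRT17 and KRT81 were named by 0 probe sets, alone or with other symbols, and were not analysed here.

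Affymetrix Human Gene arrays, which use 1 colour, were hybridised with total RNA from 3 cultures carrying GHSROS in the pTargeT mammalian expression vector and from 3 cultures carrying the empty pTargeT vector. GHSROS is a long noncoding RNA gene on the strand opposite to GHSR, the ghrelin receptor gene. All cultures were of the same line, grown in DMEM/F12 with calf serum and free of mycoplasma, and the labels do not say whether the transfected cells were clones or pools. The submitters call the 3 cultures of a group biological replicates, and if the cultures shared a transfection, the tests cover the spread between samples alone, which may be technical. The comparison asks whether the level of a gene differs when the cells are made to carry GHSROS. No probe set is annotated to GHSROS, so whether the vector raised GHSROS could not be checked.

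Values are log2 expression, so a difference of 1 is a doubling, and the array medians lay between 6.56 and 6.65. The arrays did not group by vector. On the first principal component, which held 56.3% of the variance over all probe sets, GHSROS array 3 lay at -33.6 and empty-vector array 1 at -34.1, while the other arrays lay between 5.83 and 23.8. These 2 arrays stood apart from the rest, one from each group. The counts of probe sets past each threshold, the fold change of each keratin probe set and those of the 29 probe sets named from the lists further on were also computed without both, and the list means and medians were not. In limma, 0 of the 28869 probe sets passed an adjusted p of 0.05, or 0% of those tested. At an unadjusted p under 0.05 there were 565, or 1.96%, of which 291 (1.01%) were higher and 274 (0.949%) lower in the GHSROS arrays.

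Keratin filaments are built from pairs of one type I and one type II protein, and a cell's pair reflects the kind of epithelium it came from. KRT8 with KRT18 is the pair of simple epithelia, to which luminal breast cells belong, and KRT5 with KRT14 is the pair of basal and myoepithelial cells. Carcinoma cells that take on mesenchymal features gain vimentin filaments and often lose part of their keratins and of the junctions that anchor them. In the RefSeq gene table of GRCh38.p14 the type II members KRT80, KRT7, KRT81, KRT5 and KRT8 lie on chromosome 12, with the type I gene KRT18 next to KRT8, and the other type I members lie on chromosome 17.

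RefSeq promoters, covering 250 bases before to 50 bases after an annotated start, were at hand for 2 members, KRT5 and KRT8. They are shown as one basal and one simple type II keratin whose probe sets lay within and above the background range described below. KRT5 is at chr12:52520345-52520644 and KRT8 at chr12:52926420-52926719, both on the minus strand of GRCh38.p14. KRT8 has several annotated transcripts, and the window belongs to 1 of their starts. Capitals mark matches on either strand to CACCTG, the E-box read by repressors of the SNAI and ZEB families, to the TATA sequence TATAAA, or to GCCNNNGGC, the palindrome of AP-2 factors, and no matches overlapped.
KRT5: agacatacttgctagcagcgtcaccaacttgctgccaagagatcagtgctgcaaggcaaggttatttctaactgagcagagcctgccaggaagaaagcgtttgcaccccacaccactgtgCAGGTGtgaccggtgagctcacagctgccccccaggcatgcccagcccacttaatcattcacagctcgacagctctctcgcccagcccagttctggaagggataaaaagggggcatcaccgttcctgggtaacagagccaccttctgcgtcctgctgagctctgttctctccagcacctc
KRT8: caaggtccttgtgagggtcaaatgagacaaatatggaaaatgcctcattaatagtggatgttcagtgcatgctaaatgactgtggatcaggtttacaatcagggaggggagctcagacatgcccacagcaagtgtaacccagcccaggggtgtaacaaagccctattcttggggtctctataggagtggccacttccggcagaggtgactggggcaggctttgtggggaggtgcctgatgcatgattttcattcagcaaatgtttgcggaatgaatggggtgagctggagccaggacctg
The KRT5 window held 1 match, an E-box that begins at position -130 relative to the annotated start, and 0 matches to the other motifs. The KRT8 window held 0 matches to these letters. Only these exact letters were searched, so a window with 0 matches may still hold a variant of a motif. Over all 35116 promoters of the table, 20.6% held CACCTG, 11.5% held TATAAA and 23.2% held GCCNNNGGC on either strand. Of its 38 promoters with keratin symbols, 8 held CACCTG, 21 held TATAAA and 5 held GCCNNNGGC.

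The keratins of simple epithelia had high values in the mesenchymal line, and KRT5 and KRT15 had values in the range of genes not usually transcribed in breast cells. As a guide to that background range, 378 olfactory receptor probe sets were averaged over the 6 arrays. Their means lay between 3.11 and 6.61, with a median of 4.34 and a 95th percentile of 5.81. Probe sets differ in how well they bind, so this range is a guide and not a detection limit, and no keratin's level is set against another's. The means of KRT8, KRT18, KRT7, KRT19, KRT80 and KRT14 lay above all 378 olfactory receptor probe sets. The mean of KRT5 was 5.61, above 349 of the 378, and that of KRT15 was 5.79, above 358, so both fell inside the background range. KRT14 had a mean of 7.46.

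**Figure D1:**
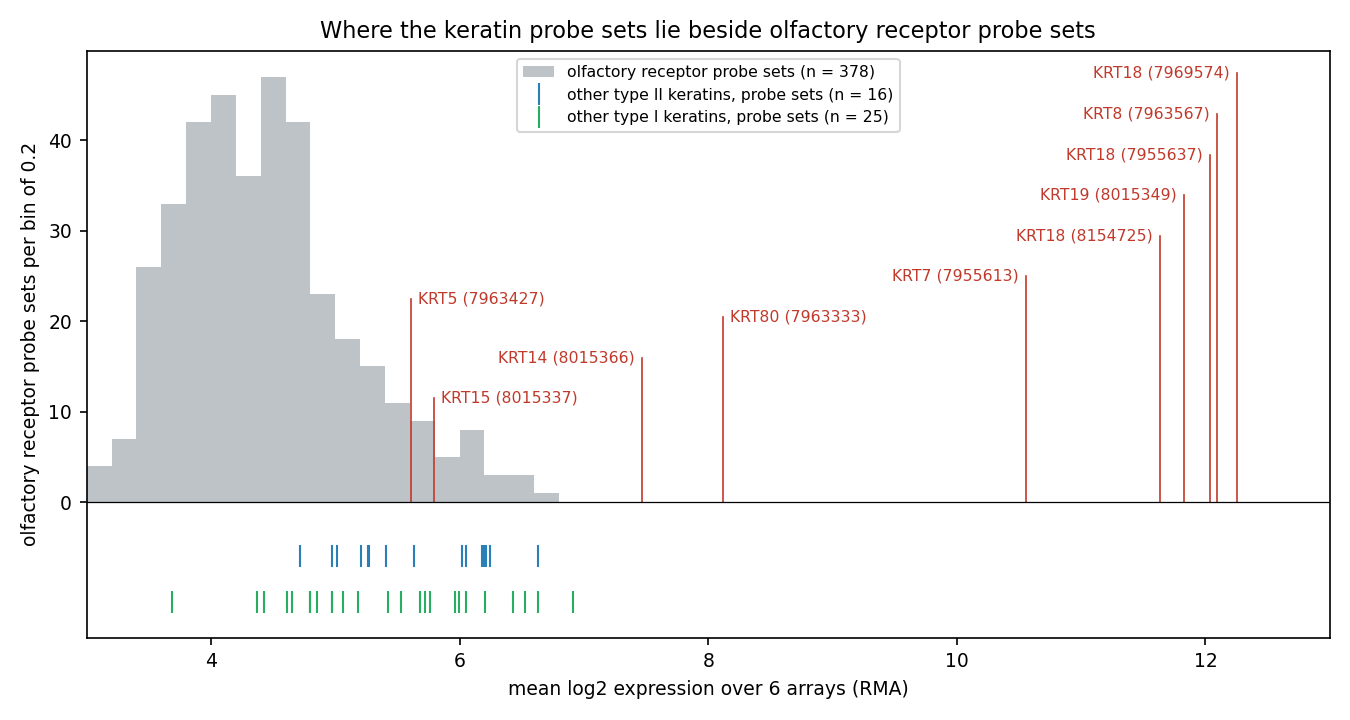
The horizontal axis gives the mean log2 expression over 6 arrays, the grey bars count olfactory receptor probe sets per bin, red lines mark the keratin members and ticks mark the other type II and type I keratins. KRT5 and KRT15 lie within the olfactory receptor range of 3.11 to 6.61, and the remaining members lie above it.

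KRT8, the type II partner of the simple pair, was nearly the same on every array. Its log2 values were 12.07, 12.13 and 12.07 on GHSROS arrays 1 to 3, against 12.08, 12.05 and 12.15 on empty-vector arrays 1 to 3. The whole span over 6 arrays was 0.095, and 1.1% of all probe sets had a smaller SD over the arrays. The means were 12.09 ± 0.030 with GHSROS and 12.09 ± 0.050 with the empty vector (SD, n = 3 each). The log2 fold change was -0.0022, with a 95% confidence interval from -0.18 to 0.18 in limma, and its sign turned after quantile normalization (0.018), with array weights (0.0091), and without empty-vector array 3 (0.026), GHSROS array 1 (0.0063) or GHSROS array 3 (0.00675).

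KRT18, the type I partner of KRT8, was read by 3 probe sets that varied more across arrays than KRT8 did. Probe set 7955637 read 11.83, 11.98 and 12.16 on the GHSROS arrays and 12.13, 12.05 and 12.06 on the empty-vector arrays. The groups overlapped because GHSROS array 3 had the highest value of all. Probe set 8154725, also paired with KRT18 alone, read 11.37, 11.49 and 11.83 with GHSROS, against 11.88, 11.48 and 11.74 with the empty vector. Probe set 7969574, the one shared with MIR622, read 11.99, 12.15 and 12.42 with GHSROS, against 12.51, 12.10 and 12.36 with the empty vector. The arrays that stood apart, GHSROS array 3 and empty-vector array 1, had the highest values of their groups on all 3 probe sets.

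The KRT18 probe sets gave log2 fold changes of -0.09 (SE 0.11), -0.13 (SE 0.16) and -0.13 (SE 0.15), in the order above. None passed the test, and the 95% confidence intervals ran from -0.34 to 0.16, from -0.51 to 0.24 and from -0.49 to 0.22. Without both arrays that stood apart the values were -0.15, -0.17 and -0.16. Single arrays moved them more. They were -0.0079, -0.034 and -0.037 without GHSROS array 1, and -0.18, -0.27 and -0.25 without GHSROS array 3. Without empty-vector array 1 they were -0.065, -0.040 and -0.041, and without empty-vector array 2 they were -0.11, -0.24 and -0.25. KRT18 has many processed copies in the genome, and the sources used here do not say which of them the 3 probe sets can read. After each probe set was centred on its own mean, 8154725 and 7969574 differed by a root mean square of 0.021 over the 6 arrays, and each differed from 7955637 by 0.11.

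Since the pair assembles in equal parts as protein, the difference of KRT18 (7955637) minus KRT8 was also followed across arrays. Centred on its mean over the 6 arrays, it was -0.19, -0.087 and 0.15 on GHSROS arrays 1 to 3, against 0.11, 0.051 and -0.030 on empty-vector arrays 1 to 3. GHSROS arrays 1 and 2 were the lowest and GHSROS array 3 the highest, so the groups overlapped.

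KRT19, a type I keratin of ducts that is unusual in lacking most of the tail domain, had the largest difference of the members relative to its spread. It read 11.56, 11.67 and 11.84 on the GHSROS arrays and 11.96, 12.11 and 11.83 on the empty-vector arrays. All but 1 of the possible pairs had the GHSROS array lower, the exception being GHSROS array 3 over empty-vector array 3. The means were 11.69 ± 0.14 with GHSROS and 11.97 ± 0.14 with the empty vector (SD, n = 3 each). The log2 fold change was -0.28 (SE 0.11), or 1.21-fold lower, with a 95% confidence interval from -0.55 to -0.0086. The unadjusted p in limma was 0.0448, and KRT19 did not pass after adjustment over all probe sets (adjusted p = 1). It was the only one of the 10 keratin probe sets at an unadjusted p under 0.05, where 1.96% of all probe sets were. Without both arrays that stood apart the log2 fold change was -0.36 with an unadjusted p of 0.0394. Without single arrays it ran from -0.35 to -0.21, and its unadjusted p was above 0.05 without empty-vector array 1 (0.0867) or 2 (0.141) and without GHSROS array 1 (0.145) or 2 (0.1).

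KRT7, a type II keratin of glands and ducts, separated the arrays and not the vectors. Its values were 9.99, 10.09 and 11.47 on the GHSROS arrays and 11.34, 10.44 and 10.03 on the empty-vector arrays. The span of 1.48 is a 2.79-fold range, and 99.1% of all probe sets had a smaller SD over the 6 arrays. GHSROS array 3 and empty-vector array 1 were high and the other 4 arrays were low. The means were 10.52 ± 0.83 with GHSROS and 10.60 ± 0.67 with the empty vector (SD, n = 3 each), and the log2 fold change was -0.08 (SE 0.47) with a 95% confidence interval from -1.20 to 1.04. It was -0.19 without both arrays that stood apart, -0.56 without GHSROS array 3 alone and 0.29 without empty-vector array 1 alone. It also turned positive without GHSROS array 1 (0.18) or 2 (0.13).

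KRT80, a type II keratin found near desmosomes and in the cytoskeleton of differentiating epithelia, followed the same arrays. It read 7.76, 7.72 and 8.50 with GHSROS, against 8.81, 8.19 and 7.74 with the empty vector. GHSROS array 3 and empty-vector array 1 were again the highest, and empty-vector array 2 lay between them and the rest. The log2 fold change was -0.25 (SE 0.31), with a 95% confidence interval from -0.999 to 0.49, and KRT80 did not pass. It was -0.23 without both arrays that stood apart, and 0.027 without empty-vector array 1 alone. Dropping either array 3 gave -0.51, dropping GHSROS array 1 gave -0.14, and dropping GHSROS array 2 gave -0.12. In bulk RNA, fewer cells with a transcript and less of it per cell cannot be told apart, which holds for KRT7 and KRT80 and for each value here.

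**Figure D2:**
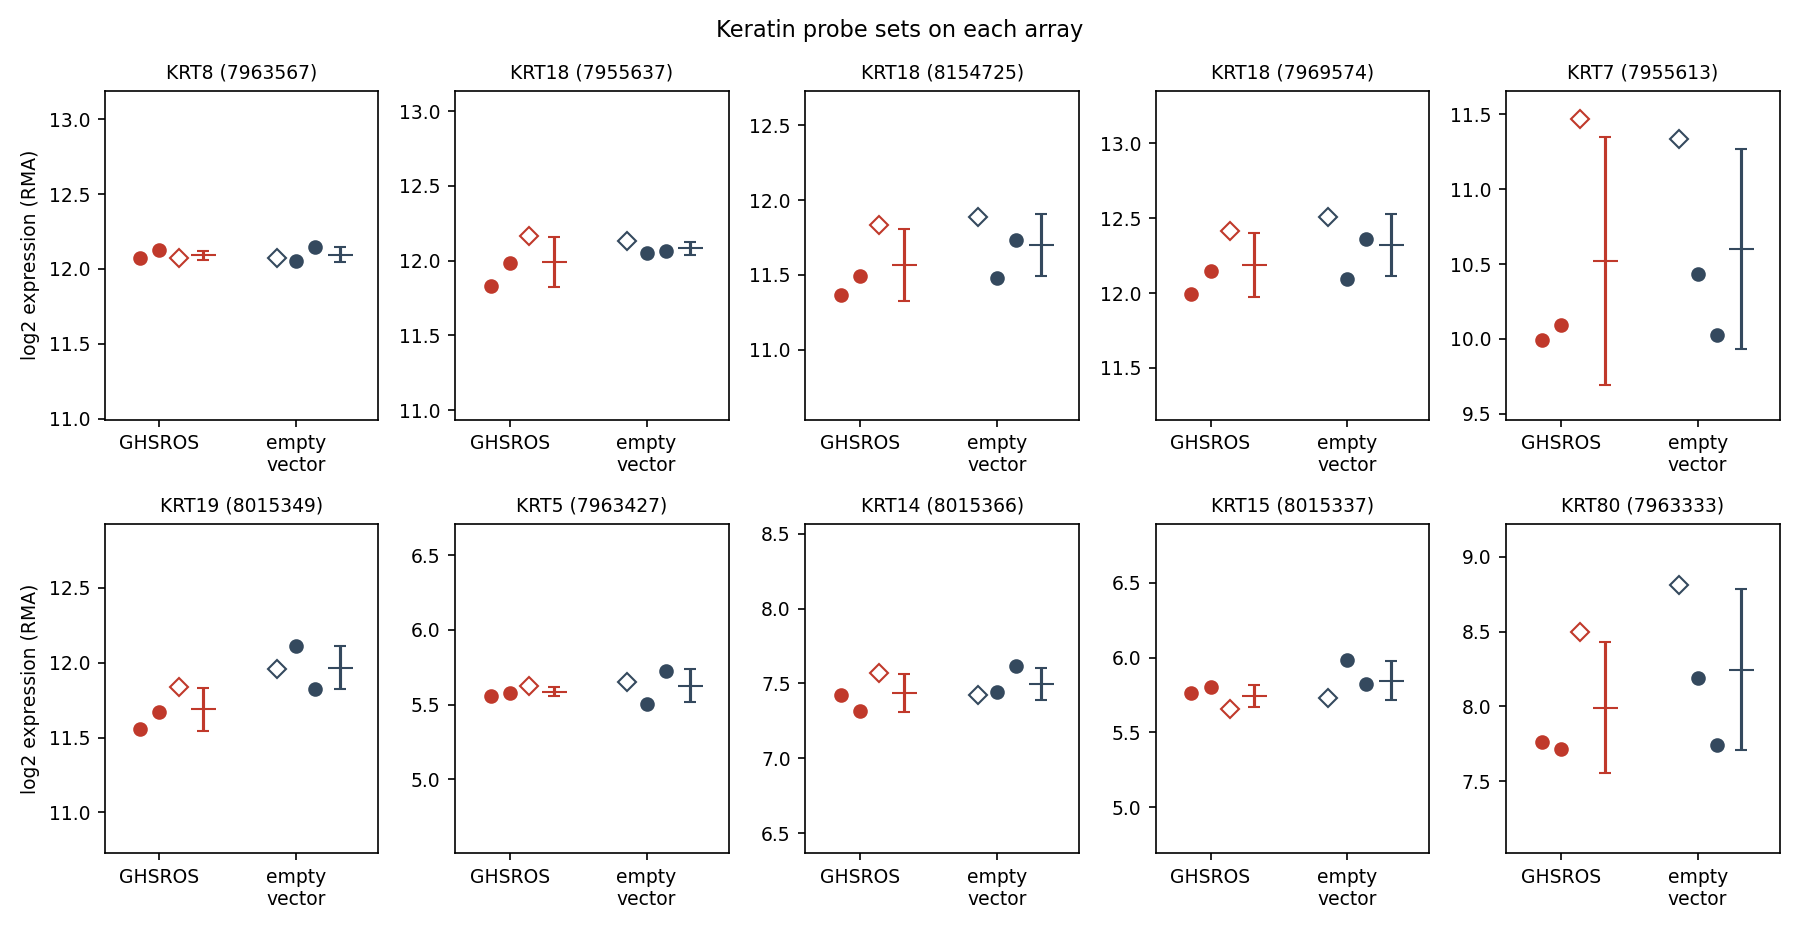
Each panel gives log2 expression of 1 keratin probe set on every array, GHSROS left and empty vector right, with arrays 1 to 3 from left to right in each group, the mean and SD as a bar, and open diamonds for the arrays that stood apart. All panels span the same height, so that the narrow span of KRT8 (0.095) can be seen beside the wide span of KRT7 (1.48).

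The basal keratins gave small differences and overlapping groups. KRT14, the type I partner of KRT5, read 7.42, 7.32 and 7.57 with GHSROS and 7.42, 7.44 and 7.62 with the empty vector, a log2 fold change of -0.06 (SE 0.10). KRT5 itself read 5.56, 5.58 and 5.62 with GHSROS and 5.65, 5.51 and 5.72 with the empty vector, a log2 fold change of -0.04 (SE 0.088). Neither passed, and both values turned slightly positive when empty-vector array 3 was left out (0.0028 for KRT14 and 0.0084 for KRT5). KRT14 also turned without GHSROS array 2 (0.00083), was -0.16 without both arrays that stood apart and -0.12 without GHSROS array 3 alone, and KRT5 was -0.099 without empty-vector array 2. KRT15, a type I keratin of basal keratinocytes and hair follicle stem cells, read 5.76, 5.80 and 5.66 with GHSROS and 5.73, 5.98 and 5.83 with the empty vector. Its log2 fold change was -0.10 (SE 0.097), and it did not pass. It was -0.16 without empty-vector array 1, -0.036 without empty-vector array 2 and -0.064 without GHSROS array 3. Since KRT5 and KRT15 lay in the background range, these values do not show whether either gene was transcribed.

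Across the members, 0 of 10 keratin probe sets passed an adjusted p of 0.05 in limma, and 1 was at an unadjusted p under 0.05. Groups without overlap were seen for 0 of the 10, where 5.87% of all probe sets had them. The GHSROS mean was the lower one for all 10 as the values were deposited, where 49.8% of all probe sets were lower, but 3 of the 10 read the same gene, and 5 of the 10, those of KRT8, KRT7, KRT14, KRT5 and KRT80, turned to the other sign in 1 or more of the alternatives. The median log2 fold change was -0.097 over the 10, beside 0.00033 over all probe sets. The adjusted p of each was 1, and the intervals show what 3 arrays a group allow. For KRT8 a difference beyond 0.18 in either direction lay outside the interval, while for KRT7 changes of more than 2-fold both ways lay within it.

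**Figure D3:**
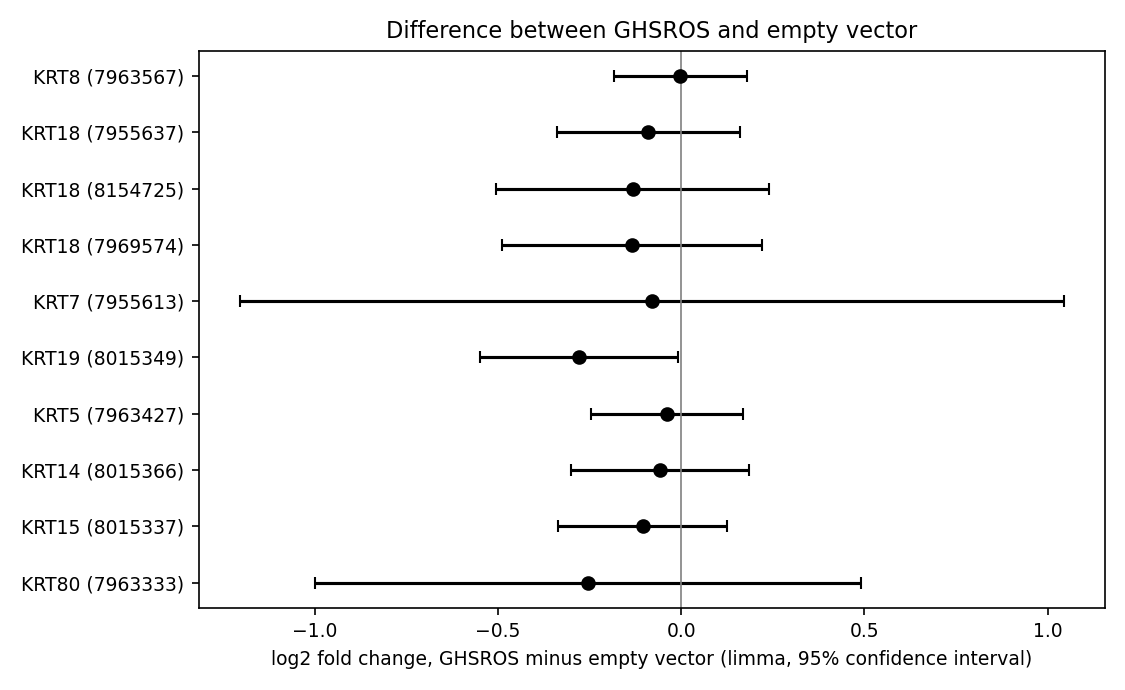
Points give the log2 fold change of each keratin probe set, GHSROS minus empty vector, with limma's 95% confidence interval as bars. The interval of KRT8 (-0.18 to 0.18) is the narrowest and that of KRT7 (-1.20 to 1.04) the widest, and the interval of KRT19 alone does not reach 0.

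For the 3 members with the widest spread over the arrays, the nearest other genes were found by the root mean square distance of values centred on their own mean over the 6 arrays, among probe sets paired with 1 symbol that is not the member's own. Nearest to KRT7 were TCEA2, a transcription elongation factor gene (0.047), LOX, which encodes the collagen-crosslinking enzyme lysyl oxidase (0.059), and LFNG, a glycosyltransferase gene that modifies Notch receptors (0.070). LOX read 9.71, 9.78 and 11.14 with GHSROS and 11.14, 10.25 and 9.82 with the empty vector, so it too was high on GHSROS array 3 and empty-vector array 1. Nearest to KRT80 were the aldehyde dehydrogenase gene ALDH3B1 (0.022) and both probe sets of LINC01296, a long noncoding RNA gene (0.059 and 0.063). ALDH3B1 read 9.05, 8.98 and 9.77 with GHSROS and 10.12, 9.43 and 9.03 with the empty vector. For KRT18 probe set 8154725, where 7969574 was thereby left out, they were HRH2, a histamine receptor gene (0.038), PXDC1 (0.041) and GON7, which encodes a subunit of a tRNA-modifying complex (0.042). HRH2 had a mean of 5.02 with GHSROS and 5.13 with the empty vector, inside the olfactory receptor range.

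**Figure D4:**
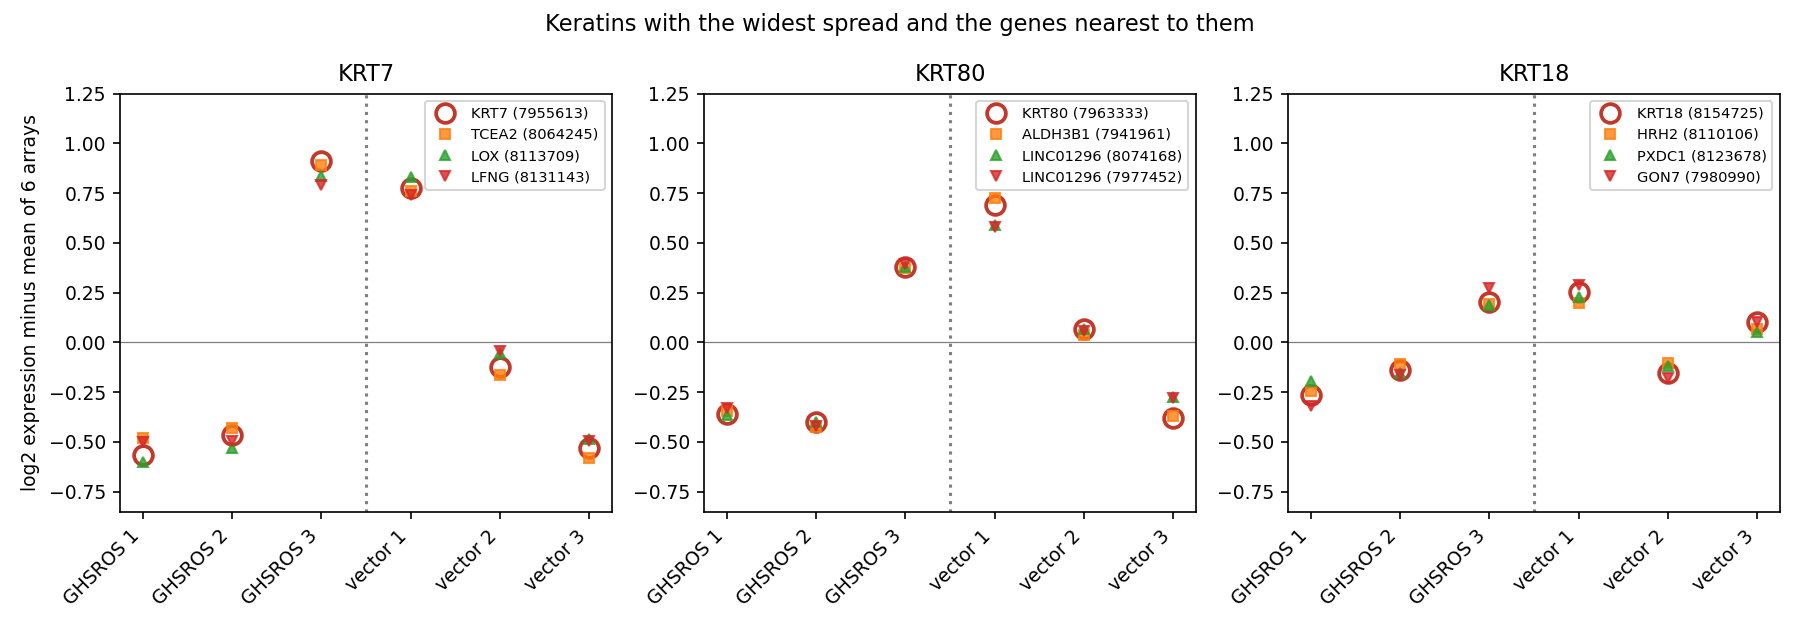
Each panel plots log2 expression minus the mean of 6 arrays for a keratin (open circles) and the 3 nearest probe sets of other genes, counting those with 1 symbol alone, on GHSROS arrays 1 to 3 and then empty-vector arrays 1 to 3. In all 3 panels GHSROS array 3 and empty-vector array 1 are the highest arrays of their groups, for KRT7 at 11.47 and 11.34 before centring.

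By probe sets paired with 1 symbol, the other keratins were at or near the background range. Probe set 8013465, paired with KRT16 and its pseudogenes KRT16P1, KRT16P2 and KRT16P3, was outside the lists. Its mean was 7.09, above all 378 olfactory receptor probe sets. Of 23 other type I genes, read by 25 probe sets, 17 probe sets had means at or under the olfactory receptors' 95th percentile, and 2 lay above their maximum, KRT13 and KRT33A. KRT39 and KRT40 each had 2 probe sets with identical values on every array, and both copies are counted. Of 21 other type II genes 16 were measured, by 1 probe set each, with 8 at or under the 95th percentile and only KRT3 above the maximum. KRT6A, KRT6B, KRT6C, KRT82 and KRT86 were not analysed here. Between the groups, 13 of the 25 type I probe sets were higher and 12 lower with GHSROS, with a median log2 fold change of 0.0018. In the type II list 11 of 16 were higher and 5 lower, with a median of 0.071. In limma 0 passed in either list, at an adjusted p of 0.05 or an unadjusted p under 0.05. The smallest p values were those of KRT13, a keratin of mucosal epithelia (0.20, SE 0.12), the hair keratin KRT38 (0.13, SE 0.083), KRT73, a keratin of the hair root sheath (0.21, SE 0.10), and the hair keratin KRT83 (0.14, SE 0.088), all as log2 fold changes.

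Vimentin, the filament protein of mesenchymal cells, was near the top of the array, with 99.5% of probe sets below its mean. VIM read 13.12, 13.11 and 12.99 with GHSROS, against 13.15, 13.22 and 13.37 with the empty vector. The groups did not overlap, the log2 fold change was -0.17 (SE 0.094), and VIM did not pass. In the list of 16 other intermediate filament genes 7 were higher and 9 lower with GHSROS, 0 passed, and the median log2 fold change was -0.026. INA, the neuronal filament gene internexin, differed by 0.17 (SE 0.085) at a mean of 5.29, inside the background range.

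Desmosomes tie keratin filaments to cell junctions, and hemidesmosomes tie them to the matrix. Of 13 desmosome genes 7 were higher and 6 lower with GHSROS, with 0 past the test and a median log2 fold change of 0.00043. The desmosomal cadherins DSC2 and DSC3 differed by 0.30 (SE 0.18) and -0.12 (SE 0.089). DSC2 lay above the background range, at 9.08 ± 0.23 with GHSROS and 8.78 ± 0.31 with the empty vector (SD, n = 3 each), while DSC3, at a mean of 3.95, lay within it. JUP, the gene of plakoglobin, was picked after its values were seen for its spread, with 8.67, 9.19 and 10.14 on the GHSROS arrays and 10.28, 9.89 and 8.54 on the empty-vector arrays. Like KRT80, it was highest on empty-vector array 1 and GHSROS array 3, with empty-vector array 2 next.

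Among the hemidesmosome and plakin genes, 8 of 10 were measured, of which 1 was higher and 7 lower with GHSROS, with 0 past the test and a median of -0.098. EVPL, the gene of envoplakin, differed by -0.16 (SE 0.10). ITGB4, the integrin chain that links keratins to the matrix through plectin, read 9.33, 9.69 and 10.38 with GHSROS and 10.97, 10.39 and 9.58 with the empty vector, a log2 fold change of -0.52 (SE 0.39). ITGB4 too was highest in each group on the array that stood apart, and its log2 fold change without both was -0.48. Of 13 chaperones and binding partners of keratins 11 were measured, with 3 higher, 8 lower, 0 past the test and a median of -0.035. DNAJB6, a chaperone that binds KRT18, differed by -0.16 (SE 0.095), and FAM83H, which organises keratin filaments, by 0.094 (SE 0.092).

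Transcription factors and junction genes of epithelia were split between the directions. Of 16 factors 14 were measured, 7 higher and 7 lower with GHSROS, with 0 past the test and a median of 0.0067. EHF, an ETS factor of epithelial cells, read 10.78, 10.92 and 10.74 with GHSROS and 11.29, 11.04 and 11.09 with the empty vector. Its groups did not overlap, and its log2 fold change was -0.32 (SE 0.10) with an unadjusted p of 0.0145 in limma and an adjusted p of 1. ESRP2, a splicing regulator of epithelial cells, differed by 0.20 (SE 0.089). Of 14 junction genes 13 were measured by 15 probe sets, 7 higher and 8 lower, with 0 past the test and a median of -0.020. Both MARVELD2 probe sets, with identical values on every array, are counted among the lower ones. One of the EPCAM probe sets, 8098439, read 7.58, 7.41 and 6.90 with GHSROS and 6.18, 6.40 and 6.84 with the empty vector, at a log2 fold change of 0.82 (SE 0.23) and an unadjusted p of 0.00887 in limma. The empty-vector mean of probe set 8098439, 6.48, lay inside the background range. The other EPCAM probe set, 8041853, differed by 0.29, with groups that overlapped and an unadjusted p of 0.116 in limma. CLDN3, a claudin gene, differed by 0.18 (SE 0.10). EHF, ESRP2, EPCAM and CLDN3 did not pass over all probe sets. Without both arrays that stood apart the log2 fold change of EHF was -0.22 with an unadjusted p of 0.102, and that of EPCAM probe set 8098439 was 0.88 with an unadjusted p of 0.00197 (limma, adjusted p = 1 for each).

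The labelled cell type was checked against its markers. Of the 13 probe sets of mesenchymal markers 10 lay above all olfactory receptor probe sets, among them VIM, ZEB1, CD44, AXL and FN1. The N-cadherin gene CDH2, SPARC and ZEB2 probe set 8055639 lay within the background range, at means of 5.70, 6.32 and 3.61. The other ZEB2 probe set had a mean of 8.52. The E-cadherin gene CDH1 lay within the background range too, at 5.14 ± 0.18 with GHSROS and 5.20 ± 0.14 with the empty vector (SD, n = 3 each). The probe sets of ESR1 and PGR, the hormone receptor genes of luminal cells, also lay within that range. Some other epithelial genes did not. Above all olfactory receptor probe sets were 6 of the 11 luminal probe sets, those of XBP1, SPDEF, ERBB2, GATA3, FOXA1 and ERBB3. Of these, FOXA1 and ERBB3, at means of 6.90 and 6.86, were close to the highest olfactory receptor mean, 6.61. Also above it were 10 of the 15 epithelial junction probe sets, among them TJP1, CLDN7, CLDN4 and EPCAM. The mean of the mesenchymal list lay between 8.98 and 9.06 on the GHSROS arrays and between 8.98 and 9.03 on the empty-vector arrays. SNAI1, a repressor of epithelial genes, differed by 0.30 (SE 0.11) at an empty-vector mean of 6.62, close to the top of the background range. In the mesenchymal list 6 of 13 probe sets were higher, with 0 past the test and a median of -0.019. In the luminal list the means lay between 6.97 and 7.19 with GHSROS and between 6.98 and 7.15 with the empty vector, with 6 of 11 probe sets higher, 0 past the test and a median of 0.0034. FOXA1, a pioneer factor of luminal cells, differed by 0.35 (SE 0.082, unadjusted p of 0.00418 in limma) with groups that did not overlap. TFF1 differed by 0.21 (SE 0.12) at a mean of 6.50, inside the background range. Without both arrays that stood apart FOXA1 differed by 0.32, at an unadjusted p of 0.0307 and an adjusted p of 1 in limma.

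Markers of other cell kinds did not pass the test either. Myoepithelial and basal markers had 3 of 7 probe sets higher with GHSROS and a median of -0.00043, with list means between 7.59 and 7.64 with GHSROS and between 7.62 and 7.65 with the empty vector, CNN1 at 0.13 (SE 0.12) and MYLK at -0.17 (SE 0.28). Of 14 cornified envelope genes of differentiated keratinocytes 13 were measured, by 15 probe sets. Of these 11 were higher, among them CDSN probe sets 8124862, 8178442 and 8179716, which read the same gene. The median was 0.076, with list means between 5.71 and 5.85 with GHSROS and between 5.69 and 5.78 with the empty vector. SPRR3 differed by 0.17 (SE 0.079) and CDSN probe set 8124862 by 0.16 (SE 0.087). Of the 15 cornified envelope probe sets 2 lay above all olfactory receptor probe sets. CNN1, SPRR3 and CDSN probe set 8124862 lay inside the background range, at means of 6.56, 5.16 and 6.45. Of the fibroblast markers 7 of 9 were higher, with a median of 0.062, THY1 at 0.17 (SE 0.079) and DCN at -0.14 (SE 0.078). Only 2 of the 9 lay above all olfactory receptor probe sets, and THY1 and DCN, at means of 5.60 and 3.64, did not. The fibroblast list means lay between 5.30 and 5.49 with GHSROS and between 5.32 and 5.35 with the empty vector. Of 6 leukocyte probe sets 2 were higher, at a median of -0.052, and 5, among them the pan-leukocyte gene PTPRC, lay at or under the olfactory receptors' 95th percentile. The exception was CD68, a lysosomal protein gene, at -0.24 (SE 0.13), and the lysozyme gene LYZ differed by -0.20 (SE 0.12). The leukocyte means lay between 5.55 and 5.72 with GHSROS and between 5.66 and 5.79 with the empty vector. Of 7 endothelial probe sets 3 lay above all olfactory receptor probe sets. In that list 4 were higher, at a median of 0.066, CLDN5 at 0.16 (SE 0.088) and CDH5 at 0.15 (SE 0.17). The endothelial list means lay between 5.91 and 6.24 with GHSROS and between 5.76 and 6.13 with the empty vector.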

How the data were processed

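RNA of 6 cultures, 3 with GHSROS and 3 with the empty vector by their titles, was measured on 1-colour arrays. The authors deposited log2 expression for each probe set, and per the submitters' processing notes they used RMA, for which the sources used here give no version or settings. In its usual form RMA quantile normalizes the arrays, which removes a shift of most genes together, and dim differences can stay compressed. No value was missing, and array values carry no read depth. Moderated two-sided tests of GHSROS against the empty vector were run with limma 3.58.1 in R 4.3.3 (lmFit, then eBayes, with no covariate) over all 28869 probe sets with no filter, with Benjamini-Hochberg adjustment and a threshold of 0.05. Probe sets were named from the platform annotation, 19310 with 1 symbol, 1752 with several and 7807 with none. Lists use probe sets with 1 symbol. The text names every member probe set, the 2 probe sets of each list with the smallest p, and the 3 nearest to each of the 3 most variable members. The fit was tested on simulated data. The members and lists were chosen with earlier results of these data known. Alternatives were quantile normalization, the replicate number as a block, centring on array medians, a filter on level, 1 probe set a gene, array weights, a robust prior with a trend on intensity, and leaving out each array or both arrays that stood apart.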

Additional observations from a re-analysis of the deposited data

How the results depend on the processing

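Over the 14 alternatives limma called 0 probe sets and 0 keratin probe sets at an adjusted p of 0.05, and the smallest adjusted p of a keratin was 0.99. At an unadjusted p under 0.05 the count over all probe sets was 1041 with array weights, 325 with 1 probe set a gene (18377 tested) and 178 among probe sets at or above the median level (14435 tested), against 565, and 356 to 813 without single arrays. KRT19 stayed negative throughout, and its unadjusted p ran from 0.00975 with array weights to 0.145 without GHSROS array 1. KRT8 turned to 0.018 after quantile normalization and to 0.0091 with array weights. Without single arrays, the log2 fold changes that turned ran from -0.022 to 0.026 for KRT8, from -0.56 to 0.29 for KRT7, from -0.099 to 0.0084 for KRT5, from -0.12 to 0.0028 for KRT14 and from -0.51 to 0.027 for KRT80, and the cause was not tested. The same ranges were -0.18 to -0.0079, -0.27 to -0.034 and -0.25 to -0.037 for KRT18 probe sets 7955637, 8154725 and 7969574, and -0.16 to -0.036 for KRT15. Leaving out both arrays that stood apart was tried for the 29 probe sets named from the lists after their values were seen. It turned 0 of them and brought 0 past an adjusted p of 0.05 in limma. EPCAM probe set 8098439, SNAI1 and FOXA1 were at an unadjusted p under 0.05 in limma. Leaving out both arrays moved KRT73 to 0.11, FAM83H to 0.046, CDSN to 0.082, CNN1 to 0.072, MYLK to -0.11 and CDH5 to 0.034. With the replicate number as a block, 0 probe sets were called, 448 were at an unadjusted p under 0.05, and KRT19 had an unadjusted p of 0.0886. The same-numbered arrays' deviations from their group means correlated across probe sets at -0.61, 0.47 and -0.55 for numbers 1, 2 and 3. Deviations within groups of 3 sum to 0, so these values cannot settle whether the numbers mark samples handled together. Across numbers, GHSROS array 3 with empty-vector array 1 gave 0.77, and GHSROS array 1 with empty-vector array 3 gave 0.63. The remaining pairs lay between -0.49 and 0.16. A block by these matches was not fitted, so the variation they share stayed in the tests, and its source was not tested. Probe sets near background, such as KRT5 and KRT15, limit what the arrays can show.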

Other observations

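The array also has probe sets named for several keratin pseudogenes, which were looked at after the values were seen. A probe set paired with MIR492 and the KRT19 pseudogene KRT19P2 read 5.42, 5.44 and 5.60 with GHSROS, against 5.84, 5.72 and 5.67 with the empty vector. Its groups did not overlap, as those of 5.87% of all probe sets did not, and its log2 fold change was -0.26, at an unadjusted p of 0.0279 and an adjusted p of 1 in limma, beside -0.28 for KRT19. It lay inside the olfactory receptor range, above 349 of 378, and whether it reads KRT19 transcripts was not tested. The pseudogene KRT18P59 read 4.75, 5.07 and 5.33 with GHSROS and 5.35, 4.79 and 5.16 with the empty vector, so it was highest in each group on the array that stood apart, as KRT18 was. The log2 fold change of KRT18P59 was -0.051, while those of the pseudogenes KRT18P55 and KRT8P41 were positive, at 0.080 and 0.017. In each of these pseudogenes the groups overlapped. For KRT17, which was not analysed here, the relative looked at was its pseudogene KRT17P5, chosen by its symbol. Its probe set 8005446 read 6.06, 5.59 and 6.14 with GHSROS and 5.91, 5.53 and 6.36 with the empty vector, and 8013473 read 6.21, 6.03 and 6.50 with GHSROS and 6.21, 5.87 and 6.60 with the empty vector.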
